A study of Mus musculus with 27 samples.

Results

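Mucus of the colon is made by goblet cells, and 7 genes listed as goblet cell mucus genes were examined in Il10-deficient and wild-type mice. They were Muc2, Tff3, Fcgbp, Zg16, Agr2, Spdef and Klk1. They were taken by name, with every probe set annotated to them, which gave 13 of 45037 probe sets and 7 of 18193 genes. RNA of full-thickness colon was measured on 27 arrays, 1 per sample, with 3 arrays in each of 9 groups. CC mice were Il10 -/- in conventional housing, SPF mice were Il10 -/- in specific pathogen free housing, and WT mice were wild type in conventional housing, each at 7, 9 and 12 weeks of age (7CC, 7SPF, 7WT and so on). No label spells out CC: its meaning here follows from what the codes SPF and WT already cover. No wild types in SPF housing are among the samples, so SPF against WT changes genotype and housing together. On this reading of CC, and by the labels only, CC against WT differs in genotype and CC against SPF in housing. The submitters selected the 3 replicates of a group by colon length and damage, and the labels do not say whether each sample was 1 animal, so p-values measure the spread between these selected samples.

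Goblet cells secrete MUC2, a gel-forming mucin that builds the layer separating bacteria from the epithelium. Of the other proteins, TFF3 is a trefoil peptide of epithelial repair, FCGBP a mucus protein with von Willebrand D domains, and ZG16 a lectin that binds gram-positive bacteria. AGR2 is a disulfide isomerase of the endoplasmic reticulum needed for MUC2 production, SPDEF an ETS transcription factor of goblet cell maturation, and KLK1 (tissue kallikrein) a secreted serine protease that releases kinins. IL-10 is an anti-inflammatory cytokine, and its absence can lead to colitis in mice that carry gut bacteria.

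The start regions of 4 of the genes are shown because Klk1, Fcgbp and Muc2 had lower group means in 12SPF than in 12WT, while Spdef, the transcription factor among the 7, was not called in that comparison. Each sequence holds 250 bases before and 50 bases after the RefSeq start of the gene on assembly GRCm38.p6. Capitals mark GGAT, or ATCC on the other strand, the core that SPDEF prefers. They lie at chr7:44225110-44225409 (Klk1, plus strand), chr7:28070986-28071285 (Fcgbp, plus strand), chr7:141690090-141690389 (Muc2, plus strand) and chr17:27728902-27729201 (Spdef, minus strand).
Klk1: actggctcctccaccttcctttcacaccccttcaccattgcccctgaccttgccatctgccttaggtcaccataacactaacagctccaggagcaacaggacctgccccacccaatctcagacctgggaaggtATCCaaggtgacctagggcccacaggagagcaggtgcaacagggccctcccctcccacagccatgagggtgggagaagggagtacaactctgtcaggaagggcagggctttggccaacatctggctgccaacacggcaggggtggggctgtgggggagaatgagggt
Fcgbp: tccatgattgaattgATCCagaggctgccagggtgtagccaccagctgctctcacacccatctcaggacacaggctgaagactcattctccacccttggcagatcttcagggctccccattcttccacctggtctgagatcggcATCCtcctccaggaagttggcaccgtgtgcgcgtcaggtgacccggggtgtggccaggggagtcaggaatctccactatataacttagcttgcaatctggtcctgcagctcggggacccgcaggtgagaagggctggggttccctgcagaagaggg
Muc2: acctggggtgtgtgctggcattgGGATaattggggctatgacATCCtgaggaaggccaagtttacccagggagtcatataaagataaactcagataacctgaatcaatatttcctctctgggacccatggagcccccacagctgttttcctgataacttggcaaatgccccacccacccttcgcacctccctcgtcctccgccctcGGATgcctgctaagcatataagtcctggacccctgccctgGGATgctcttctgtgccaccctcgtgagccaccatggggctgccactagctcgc
Spdef: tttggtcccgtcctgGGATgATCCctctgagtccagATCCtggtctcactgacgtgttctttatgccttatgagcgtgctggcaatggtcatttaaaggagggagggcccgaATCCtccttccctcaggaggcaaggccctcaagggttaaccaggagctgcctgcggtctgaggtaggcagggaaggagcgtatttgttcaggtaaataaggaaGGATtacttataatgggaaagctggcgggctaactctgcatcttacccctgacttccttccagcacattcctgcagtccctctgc
The core occurred 1 time in the Klk1 window, 2 times in that of Fcgbp, 4 times in that of Muc2 and 5 times in that of Spdef. The Agr2 window (chr12:35992675-35992974, plus strand) held it 2 times, and Tff3 and Zg16 had no entry. A core this short was found in 79.6% of 32851 promoter windows of the same length, counting both strands, so its presence is a description of the letters and not a site.

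All values are log2 expression as the submitters normalized it, and they lay between 2.10 and 14.25 over the 27 arrays. Array medians lay between 4.91 and 4.98, and 3 arrays a group set the precision. The actin 3′ minus 5′ difference, which widens with RNA degradation, was 0.95 for 12WT replicate 2 and between 0.37 and 0.72 on the other arrays. The Il10 probe set, 1450330_at, read 4.80 to 6.35 on the CC arrays and 4.66 to 7.09 on the SPF arrays, against 3.51 to 3.83 on the WT arrays. It was thus higher, without overlap, on the arrays labelled Il10 -/-. Arrays of this type read near the 3′ end of a transcript, and where these probes lie relative to the disrupted part of Il10 is not given in the sources used here. The probe set therefore does not check the genotype labels, which were taken as given for every difference below. The mean of 16 markers of epithelium in general lay between 11.14 and 11.65 on all arrays, so that epithelium was present in every sample.

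**Figure D1:**
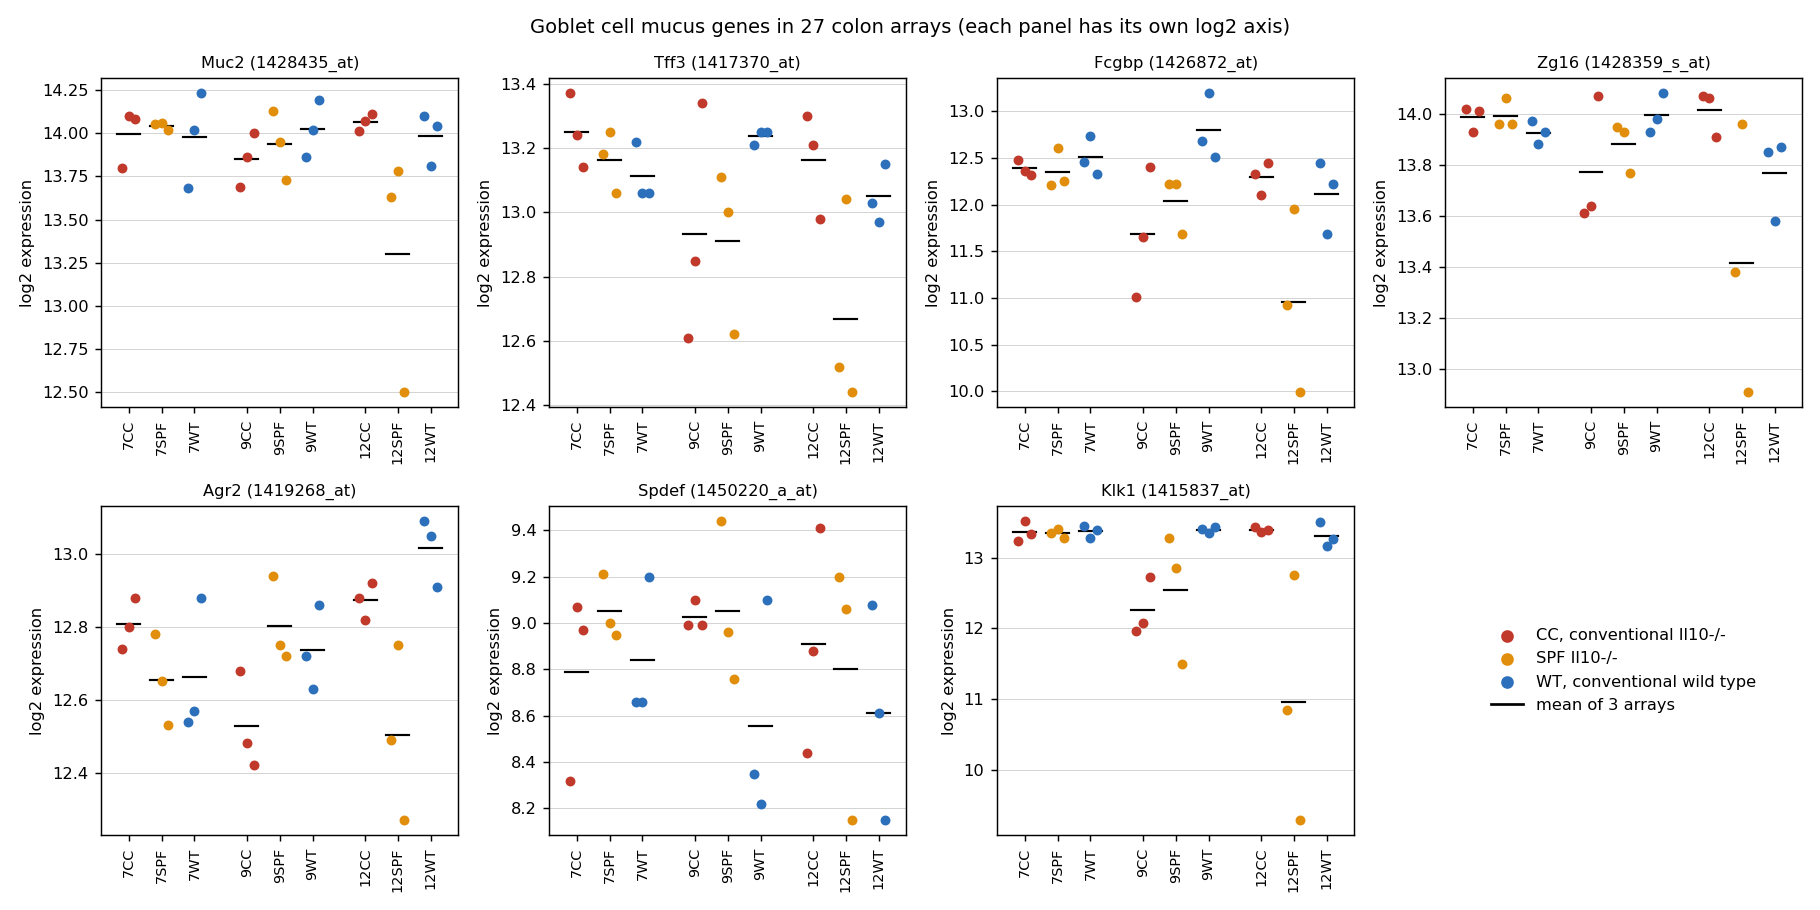
Log2 expression of 1 probe set per gene on each of 27 arrays, by group, with a bar at the mean of 3 arrays and a separate vertical axis for each gene. Klk1 lies between 13.17 and 13.52 in all WT groups, both 7-week Il10 -/- groups and 12CC, is between 11.50 and 13.28 in 9CC and 9SPF, and spreads from 9.29 to 12.76 in 12SPF.

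Of the 7 genes, 5, as read by Klk1 1415837_at, Fcgbp, Muc2, Zg16 1428358_at and Agr2 1419268_at, had their lowest group mean in 12SPF and their second lowest in 9CC. Tff3 was also lowest in 12SPF, at 12.67 ± 0.33 (SD, n = 3), followed by 9SPF and 9CC. Spdef had another order, with its lowest means in 9WT and 12WT and its highest in 7SPF and 9SPF. For each of these 7 probe sets, every group overlapped in range with its neighbour in the order of means, so the order is a description. Klk1 1448107_x_at and 1455977_x_at and Zg16 1434137_x_at also had 12SPF lowest and 9CC second. Agr2 1455802_x_at was lowest in 9CC, at 10.24, followed by 12SPF. Zg16 1428359_s_at had 12WT second lowest, level with 9CC at 13.77, and Klk1 1460050_x_at was lowest in 7CC. The spread was unequal: the SD of Klk1 1415837_at was 1.74 in 12SPF and 0.93 in 9SPF, against 0.04 in both 9WT and 12CC. The test shares 1 spread over the 9 groups, which understates that of 12SPF.

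The 4 probe sets of Klk1 did not behave alike. Probe sets 1415837_at and 1448107_x_at ranged over 4.23 and 4.29 log2 units across the arrays, and 1455977_x_at ranged over 1.51. Probe set 1460050_x_at stayed between 5.58 and 6.25 on every array, near the array medians, and passed no test. The ending x_at marks probes that can bind related transcripts, and Klk1 has many close paralogs, so values of such probe sets are uncertain as to the gene. The 10 probe sets of 9 Klk1b genes, the nearest relatives, read between 2.70 and 5.47 on all arrays. Muc2 and the Zg16 probe sets 1428359_s_at and 1434137_x_at lay close to the top of the scale: their smallest gaps to the array maximum were 0.00, 0.05 and 0.06, and array maxima lay between 14.10 and 14.25. Whether saturation compressed their differences was not tested.

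At 7 weeks no difference between the kinds of mice passed the test for any goblet cell gene. Muc2 read 13.80, 14.10 and 14.08 in 7CC and 14.05, 14.06 and 14.02 in 7SPF, against 13.68, 14.02 and 14.23 in 7WT, and the 3 groups overlapped. Klk1 1415837_at read 13.24 to 13.52 on all 9 arrays of this age, and Fcgbp read 12.21 to 12.73. In limma, 0 of 13 probe sets were called in each comparison at a Benjamini-Hochberg adjusted p under 0.05, and 0 of 13 had an unadjusted p under 0.05. Over all probe sets, 0.107% were called lower and 0.198% higher in CC against WT, 0.0644% and 0.0999% in SPF against WT, and 0.0755% and 0.0888% in CC against SPF. The 95% intervals left room for differences: that of Klk1 1415837_at ran from -1.03 to 1.01 in CC minus WT, and that of Muc2 from -0.42 to 0.46.

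At 9 weeks Fcgbp and 1 probe set of Klk1 were lower in the conventional knockouts than in the wild types. Fcgbp read 11.01, 11.65 and 12.40 in 9CC, against 12.68, 13.19 and 12.51 in 9WT. All 3 CC arrays lay below all 3 WT arrays, though the highest CC array came within about 0.1 of the lowest WT array. The log2 difference was -1.11 ± 0.34 (SE), a 2.16-fold lower level, with a limma adjusted p of 0.0275. Klk1 1455977_x_at read 7.93, 7.90 and 8.27 in 9CC, against 8.78, 8.77 and 8.80 in 9WT, and the groups stood clearly apart. Its difference was -0.75 ± 0.21 (SE) with an adjusted p of 0.0153. These were 2 of 13 probe sets called lower and none higher, where 7.66% of all probe sets were called lower and 9.48% higher.

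Klk1 1415837_at, the probe set without the x_at ending, read 11.96, 12.08 and 12.73 in 9CC, against 13.41, 13.35 and 13.43 in 9WT. The groups did not overlap, and the WT arrays were tight while the CC arrays were spread. The difference of -1.14 ± 0.49 (SE; 95% interval -2.16 to -0.11) did not pass the test, with an adjusted p of 0.121. In all, 4 of 13 probe sets had every CC array below every WT array, where 18.0% of all probe sets did. The other genes gave small differences that did not pass: -0.17 for Muc2 (interval -0.61 to 0.27), -0.30 for Tff3 (-0.64 to 0.03), -0.40 for Zg16 1428358_at (-1.01 to 0.21), -0.21 for Agr2 1419268_at (-0.45 to 0.03) and 0.47 for Spdef (-0.13 to 1.08). The median difference of the 13 probe sets was -0.22, against -0.01 over all probe sets. Both calls rested on single arrays: without 9CC replicate 1 or replicate 2, 0 probe sets were called, and without 9WT replicate 1 or replicate 2, 1 was. Over all probe sets the calls in either direction were 3167, 4641, 5188 and 5154 in these 4 settings, against 7718 with all arrays.

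The SPF knockouts at 9 weeks gave 1 call against the wild types. Klk1 1455977_x_at read 8.52, 8.33 and 7.30 in 9SPF, against 8.78, 8.77 and 8.80 in 9WT. Replicate 3 of 9SPF stood far below the other 5 arrays. The difference was -0.73 ± 0.21 (SE) with an adjusted p of 0.0332, and without 9SPF replicate 3, or without any 1 of the 9WT arrays, none of the 13 was called. Over all probe sets 443 were called without 9SPF replicate 3 and 1343 to 1720 without a 9WT array, against 3548 with all arrays. This was 1 of 13 called lower, where 3.10% of all probe sets were called lower and 4.78% higher. Klk1 1415837_at read 13.28, 12.85 and 11.50 in 9SPF, and Fcgbp read 12.22, 12.22 and 11.68, so that replicate 3 was again the lowest. Their differences from 9WT, -0.85 (95% interval -1.87 to 0.17) and -0.75 (-1.46 to -0.05), did not pass.

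Conventional and SPF knockouts could not be told apart at 9 weeks in these genes, with 0 of 13 probe sets called in limma and 1 with an unadjusted p under 0.05, where 0.00222% of all probe sets were called in each direction. The largest difference was that of Fcgbp, -0.35 (95% interval -1.06 to 0.35). Agr2 1419268_at, the 1 with an unadjusted p under 0.05, read 12.68, 12.48 and 12.42 in 9CC, against 12.94, 12.75 and 12.72 in 9SPF. The groups did not overlap, and the difference of -0.28 (-0.52 to -0.03) had an adjusted p of 0.610.

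At 12 weeks the SPF knockouts had lower levels of 5 of the 7 genes than the wild types: Klk1, Fcgbp, Muc2, Zg16 and Agr2. In all, 9 of 13 probe sets were called lower and none higher, where 13.4% of all probe sets were called lower and 13.0% higher. The median difference of the 13 was -0.51, against 0.01 over all probe sets. Every WT array lay above every SPF array for 6 of 13 probe sets, which held for 14.6% of all probe sets. The calls of Fcgbp, Muc2, Zg16, Klk1 1455977_x_at and Agr2 1455802_x_at were lost when certain single arrays were left out or in other settings, as given with their values. With only the compared arrays every one of these calls was lost. In bulk tissue, fewer goblet cells and less RNA per goblet cell cannot be told apart.

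Klk1, the protease, showed the largest measured difference. Whether those of Muc2 and some Zg16 probe sets were compressed near the top of the scale was not tested. Probe set 1415837_at read 10.84, 12.76 and 9.29 in 12SPF, against 13.50, 13.17 and 13.26 in 12WT. The groups did not overlap, and the 3 SPF arrays were spread widely below a tight WT group, with replicate 2 nearest to it. The log2 difference was -2.35 ± 0.49 (SE), a 5.08-fold lower level, with an adjusted p of 0.00127. Probe set 1448107_x_at, with readings of 10.79, 12.76 and 9.24 in 12SPF, against 13.53, 13.20 and 13.30 in 12WT, gave -2.41 ± 0.50 and an adjusted p of 0.00116. Probe set 1455977_x_at read 7.81, 8.35 and 7.58 in 12SPF, against 8.63, 8.59 and 8.78 in 12WT, with a difference of -0.75 ± 0.21 and an adjusted p of 0.00908. All 3 kept the order of the SPF arrays, though the call of 1455977_x_at was lost without 12SPF replicate 3.

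Among the secreted mucus proteins, Fcgbp read 10.93, 11.95 and 9.99 in 12SPF, against 12.44, 11.68 and 12.22 in 12WT. SPF replicate 2 lay above WT replicate 2, so the groups overlapped. Its difference was -1.15 ± 0.34 (SE), 2.22-fold, with an adjusted p of 0.0144. The Fcgbp call was lost without 12SPF replicate 3 or 12WT replicate 1. Muc2 read 13.63, 13.78 and 12.50 in 12SPF, against 14.10, 13.81 and 14.04 in 12WT. The groups touched but did not overlap, and replicate 3 alone was far below, so the difference of -0.68 ± 0.21 (adjusted p 0.0199) was carried mainly by 1 array. The WT arrays lay near the top of the scale, so no fold is given. Without that array the difference was -0.28 and the Muc2 call was lost, with an adjusted p of 0.213. The call was also lost without 12WT replicate 1 or 3.

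Zg16, the lectin, was called with 2 of its 3 probe sets. Probe set 1428358_at read 11.79, 13.02 and 11.09 in 12SPF, against 12.90, 12.59 and 12.87 in 12WT. Replicate 2 of 12SPF lay above every WT array while the other 2 lay well below. The difference was -0.82 ± 0.30 (SE) with an adjusted p of 0.0426, and that of 1434137_x_at was -0.50 ± 0.18 with an adjusted p of 0.0467. Both calls were lost with the replicate number as a block, with centring on the array median, with only the compared arrays, and without 12SPF replicate 1 or 3 or any 12WT array. The call of 1434137_x_at held in only 10 of the 35 settings it was run in. Probe set 1428359_s_at gave -0.35 (95% interval -0.69 to -0.01) and did not pass, with an adjusted p of 0.128. Tff3 read 12.52, 13.04 and 12.44 in 12SPF, against 13.03, 12.97 and 13.15 in 12WT, again with replicate 2 inside the WT range. Its difference of -0.38 (-0.71 to -0.05) did not pass, with an adjusted p of 0.0874.

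Agr2, the isomerase, moved less but more evenly. Probe set 1419268_at read 12.49, 12.75 and 12.27 in 12SPF, against 13.09, 13.05 and 12.91 in 12WT, without overlap. Its difference was -0.51 ± 0.12 (SE), 1.42-fold, with an adjusted p of 0.00255, and that of 1455802_x_at was -0.34 ± 0.12 with an adjusted p of 0.0327, a call that held in 27 of the 35 settings it was run in. Spdef, the transcription factor, read 9.20, 9.06 and 8.15 in 12SPF, against 9.08, 8.61 and 8.15 in 12WT, and the groups overlapped throughout. Its difference of 0.19 (95% interval -0.41 to 0.80) did not pass, with an adjusted p of 0.699. The sign of the Spdef difference turned when 12SPF replicate 1 or 12WT replicate 3 was left out.

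**Figure D2:**
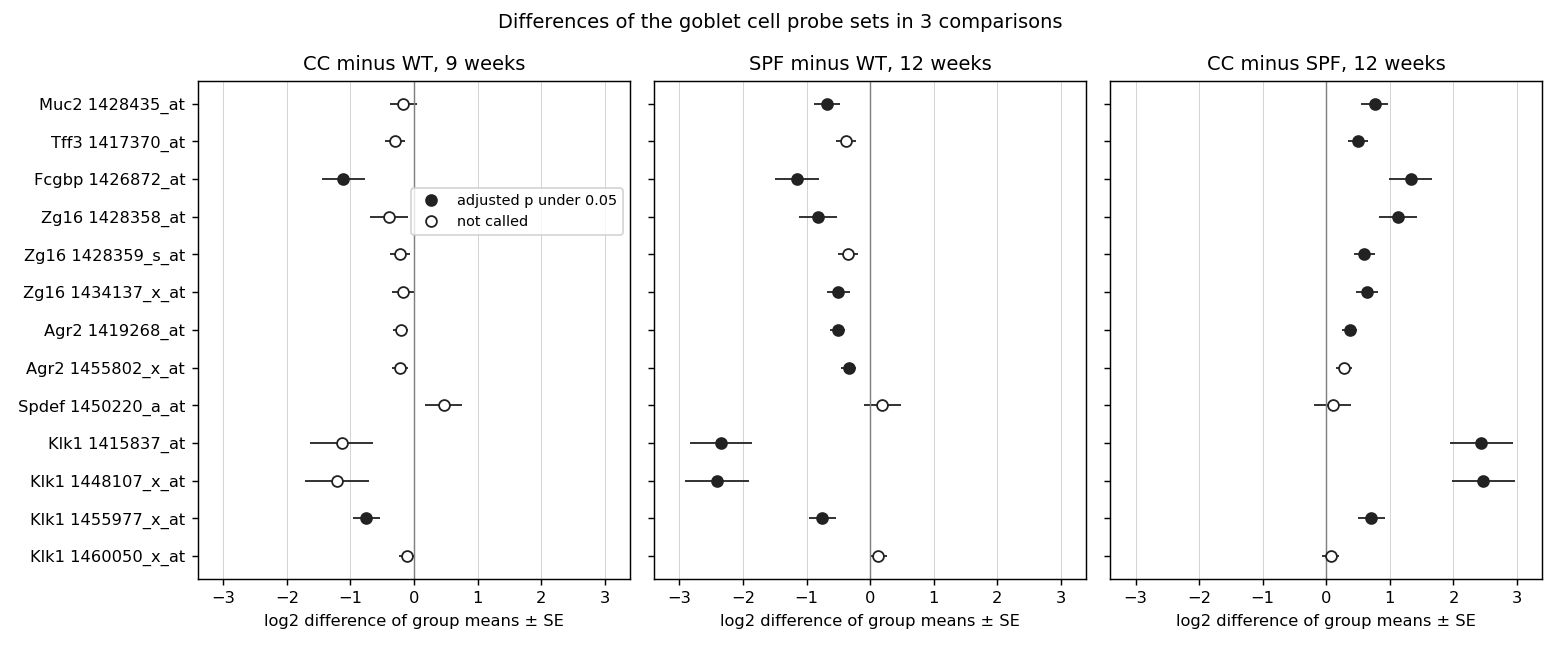
Log2 differences of group means with standard errors (bars) for the 13 probe sets in 3 comparisons, with filled circles for an adjusted p under 0.05. In SPF minus WT at 12 weeks 9 probe sets are filled on the left of 0, and in CC minus SPF 10 are filled on the right.

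The conventional knockouts at 12 weeks did not show these low levels. Klk1 1415837_at read 13.44, 13.36 and 13.40 in 12CC, against 10.84, 12.76 and 9.29 in 12SPF. The CC arrays were tight and lay above every SPF array, with a difference of 2.44 ± 0.49 (SE), 5.43-fold, and an adjusted p of 0.00345. In all, 10 of 13 probe sets of 6 genes were called higher in CC than in SPF and none lower, where 7.54% of all probe sets were called higher and 9.14% lower. The median difference of the 13 was 0.64, against 0.01 over all probe sets. Every CC array lay above every SPF array for 7 of 13, which held for 12.7% of all probe sets.

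The same comparison gave calls for each secreted protein. Muc2 read 14.01, 14.07 and 14.11 in 12CC, against 13.63, 13.78 and 12.50 in 12SPF, a difference of 0.76 ± 0.21 (SE) with an adjusted p of 0.0166 and no overlap. Fcgbp read 12.33, 12.10 and 12.45 in 12CC and stood above all SPF arrays by 1.33 ± 0.34 on average (adjusted p 0.0107). Tff3 read 13.30, 13.21 and 12.98 in 12CC, and its difference was 0.50 ± 0.16 (adjusted p 0.0363), with overlap at 12SPF replicate 2. The 3 Zg16 probe sets were higher by 1.13, 0.60 and 0.64, with adjusted p from 0.0120 to 0.0191, and Agr2 1419268_at by 0.37 (adjusted p 0.0347). The Agr2 call was lost with the replicate number as a block, after quantile normalization again, with either centring, and without any 1 of the 12CC arrays or 12SPF replicate 1 or 3. The Tff3 call was lost with the block, with centring on epithelial markers and without 12CC replicate 1 or 2 or 12SPF replicate 1 or 3. The Muc2 call was lost without 12CC replicate 2 or 3 or 12SPF replicate 3, and that of Fcgbp without 12SPF replicate 3. All 3 Zg16 calls were lost without 12SPF replicate 1 or 3. Those of 1428359_s_at and 1434137_x_at were also lost without 12CC replicate 1 or 2. With only the compared arrays every call was lost. The genes left uncalled were Spdef, at 0.10 (95% interval -0.50 to 0.71), and besides it the probe sets Agr2 1455802_x_at and Klk1 1460050_x_at. These results and those of SPF against WT share the 12SPF arrays and are not independent.

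Against the wild types, the conventional knockouts at 12 weeks gave 0 of 13 calls in limma and 0 of 13 with an unadjusted p under 0.05, where 0.231% of all probe sets were called lower and 0.211% higher. The differences lay between -0.14 for Agr2 1419268_at and 0.31 for Zg16 1428358_at. For Klk1 1415837_at the difference was 0.09, with a 95% interval from -0.93 to 1.12 that a fall of the size seen in SPF would lie outside. For Fcgbp it was 0.18 (-0.53 to 0.88). All 3 Zg16 probe sets had every CC array above every WT array, as 8.19% of all probe sets did, but none passed, with adjusted p from 0.503 to 0.771.

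Counts at 12 weeks depended on single arrays. Without 12SPF replicate 3, the array with the lowest Klk1, Fcgbp and Muc2, 3 of 13 probe sets were called lower in SPF than in WT, and 2 were called higher in CC than in SPF. Without 12SPF replicate 2, the array nearest to the other groups, the counts were 11 and 11. Over all probe sets, calls in either direction were 8185 and 1417 without replicate 3 and 13978 and 11319 without replicate 2, against 11893 and 7513 with all arrays. Without 12WT replicate 1 the SPF against WT count was 4, with 11358 calls over all probe sets. Without 12WT replicate 2, the array with the widest actin difference, that count was 6, with 9792 calls. Without 12WT replicate 3 it was also 6, with 10203 calls. Without 12CC replicate 1 or 2 the CC against SPF count was 5 or 4, and without 12SPF replicate 1 it was 4, with 5458, 4309 and 3068 calls over all probe sets. When only the 6 arrays of the groups compared were fitted, the counts were 0 and 0, while 2051 probe sets of the array were still called in SPF against WT and 35 in CC against SPF.

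Averaged over the 3 ages, SPF against WT gave 4 of 13 probe sets called lower, where 13.9% of all probe sets were called lower and 14.5% higher. They were 3 of Klk1, with -1.08 ± 0.29 (SE) for 1415837_at, -1.10 ± 0.29 for 1448107_x_at and -0.53 ± 0.12 for 1455977_x_at, and Fcgbp, with -0.69 ± 0.20. Their adjusted p lay between 0.00204 and 0.0111, and they were the only 4 of the 26 calls between kinds of mice that held in every setting they were run in, which was 36 settings for Klk1 1415837_at and Fcgbp and 35 for the other two, leaving out each array in turn included. The ages did not add equally to these averages. Klk1 1415837_at averaged 13.35 in 7SPF against 13.38 in 7WT, and 12.54 in 9SPF against 13.39 in 9WT. At 12 weeks it averaged 10.96 in 12SPF against 13.31 in 12WT. None of the 13 was called at 7 weeks. CC against WT averaged over ages gave 0 of 13 in limma and 1 with an unadjusted p under 0.05, where 6.12% of all probe sets were called lower and 8.03% higher. CC against SPF averaged over ages gave 0 of 13 and 3 with an unadjusted p under 0.05, where 0.00888% were called higher and 0.00666% lower.

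The change of the CC minus SPF difference between ages was tested directly. From 9 to 12 weeks it grew for 7 of 13 probe sets of 4 genes, where 5.30% of all probe sets were called in this direction and 6.66% in the other. For Klk1 1415837_at, CC minus SPF was -0.28 at 9 weeks and 2.44 at 12 weeks, a change of 2.72 ± 0.70 (SE) with an adjusted p of 0.0151. For Fcgbp it was -0.35 and 1.33, a change of 1.69 ± 0.48 (adjusted p 0.0260), and for Agr2 1419268_at it was -0.28 and 0.37, a change of 0.64 ± 0.17 (adjusted p 0.0157). The 3 Zg16 probe sets changed by 0.71 to 1.37, with adjusted p from 0.0354 to 0.0494. Muc2 changed by 0.85 (95% interval 0.23 to 1.47) and did not pass, with an adjusted p of 0.0669. Without 9SPF replicate 1 no probe set was called, without 12SPF replicate 3 the count was 2 and without its replicate 1 it was 3, and without its replicate 2 it was 11. Without 9CC replicate 1 or 2, or 9SPF replicate 2, it was 3, and without any 1 of the 12CC arrays it was 4. Calls over all probe sets were 5390 with all arrays, 2074 without 9SPF replicate 1, 2786, 9781 and 2017 without 12SPF replicates 1, 2 and 3, and between 2397 and 4258 in the other settings named. From 7 to 12 weeks the same difference grew for 1 of 13, Klk1 1415837_at, by 2.42 ± 0.70 (adjusted p 0.0492), where 1.43% of all probe sets were called in this direction and 2.89% in the other. That call was lost with the replicate block, with quantile normalization again and with only the compared arrays. All these changes share the 12SPF arrays.

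Within a kind of mouse, the SPF knockouts between 7 and 12 weeks were the only age step with calls for these genes. In 12SPF, 9 of 13 probe sets of 5 genes were lower than in 7SPF, where 9.85% of all probe sets were called lower and 9.86% higher. Klk1 1415837_at read 10.84, 12.76 and 9.29 in 12SPF, against 13.35, 13.41 and 13.28 in 7SPF, a difference of -2.39 ± 0.49 (SE) with an adjusted p of 0.00210. Fcgbp was lower by 1.40 on the log2 scale, with an adjusted p of 0.00594, and Tff3 was called here with -0.49 ± 0.16 and an adjusted p of 0.0327. Agr2 was not: its 1419268_at gave -0.15 (95% interval -0.39 to 0.09). The call for Agr2 against 12WT thus came beside a 12WT mean of 13.01, the highest of the 9 groups. Without 12SPF replicate 3 the count was 2, without its replicate 1 it was 5, and without 7SPF replicate 2 it was 4. Over all probe sets 3908, 5295 and 5472 were called in these settings, against 8879 with all arrays.

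Other age steps gave no call for these genes. In SPF from 9 to 12 weeks, limma called 0 of 13 while 8 had an unadjusted p under 0.05, and it called no probe set of the array at all in either direction. In CC, 0 of 13 were called from 7 to 9 and from 9 to 12 weeks, with 4 and 5 at an unadjusted p under 0.05. Of all probe sets, 3.18% were called lower and 3.35% higher in the first of these steps, and 3.06% and 1.03% in the second. Klk1 1415837_at was 12.26 ± 0.41 in 9CC, against 13.37 ± 0.14 in 7CC (SD, n = 3 each), and every 9CC array lay below every 7CC array. That difference of -1.11 (95% interval -2.13 to -0.09) had an adjusted p of 0.192. In SPF from 7 to 9 weeks, 0 of 13 were called and 1 had an unadjusted p under 0.05, where 0.138% of all probe sets were called lower and 0.271% higher. In CC from 7 to 12 weeks, 0 of 13 were called, 1 had an unadjusted p under 0.05, and no probe set of the array was called.

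In WT mice limma called 0 of 13 in each of the 3 age steps. From 7 to 9 weeks 0 had an unadjusted p under 0.05, where 0.00888% of all probe sets were called lower and 0.00666% higher. From 9 to 12 weeks 1 did and no probe set of the array was called, and from 7 to 12 weeks 1 did, where 0.0266% were called lower and 0.00888% higher. The other 7 changes of a difference with age also gave 0 of 13 calls. For the change of CC minus WT, 2, 2 and 1 had an unadjusted p under 0.05 from 7 to 9, from 9 to 12 and from 7 to 12 weeks, where 0.839%, 0.422% and 0% of all probe sets were called in either direction. For the change of SPF minus WT the counts were 1, 3 and 8 in the same steps, where 0%, 0% and 4.54% were called, and the lowest adjusted p was 0.0533. For the change of CC minus SPF from 7 to 9 weeks the count was 1, where 0.0688% were called.

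The arrays with the lowest Klk1 also had high levels of neutrophil markers. The mean of 8 neutrophil markers was 7.08, 4.58 and 7.91 in 12SPF and 6.14, 6.20 and 5.28 in 9CC. It was 3.53, 3.76 and 5.34 in 9SPF and between 3.44 and 3.72 on every other array. The 7 arrays above 4 were 9SPF replicate 3 and all arrays of 9CC and 12SPF, and they were also the 7 arrays with the lowest Klk1 1415837_at. The margin was small, with Klk1 at 12.76 in 12SPF replicate 2 and 12.85 in 9SPF replicate 2. The match was not particular to neutrophil markers. The same 7 arrays had the lowest means of absorptive colonocyte markers, 8.16 to 11.07, with 11.24 the next. Other genes did not always follow this split: 9CC replicate 3 had the highest Zg16 1428358_at of all arrays, 13.31, and 12WT replicate 2 had an Fcgbp level of 11.68 with a marker mean of 3.55. Of the 8 markers, 7 were called higher in 12SPF than in 12WT, where 17.2% of all genes were. In 9CC against 9WT, 4 were called higher, where 13.2% of all genes were. S100a8, an abundant calcium-binding protein of neutrophils, read 12.06, 7.41 and 13.34 in 12SPF, against 3.49, 3.71 and 3.55 in 12WT. The part of immune cell RNA in the lower Klk1 values was not tested.

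**Figure D3:**
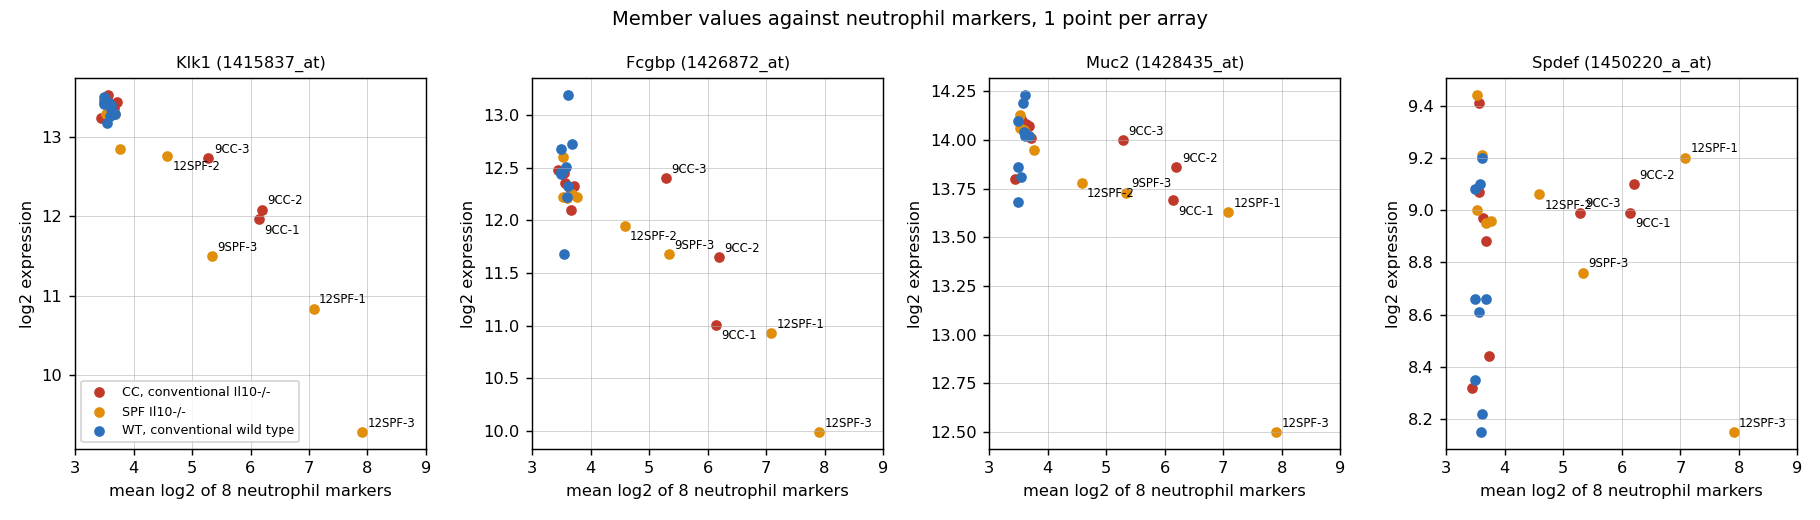
Log2 expression of Klk1, Fcgbp, Muc2 and Spdef against the mean of 8 neutrophil markers, 1 point per array, with names on the 7 arrays whose marker mean is above 4. The Klk1 value is lowest, 9.29, on the array with the highest marker mean, 7.91, and Spdef is also at its lowest, 8.15, on that array, as on 12WT replicate 3, but read 8.76 to 9.20 on the other 6 named arrays.

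Other cell classes moved with them. All 8 macrophage markers were higher in 12SPF than in 12WT and in 9CC than in 9WT, with list means of 8.31 to 9.41 in 12SPF and 8.54 to 9.10 in 9CC, against 7.17 to 7.51 in 12WT and 7.29 to 7.75 in 9WT. All 10 smooth muscle markers were lower in 12SPF than in 12WT, with means of 9.35 to 10.63, against 11.02 to 11.13. Of 8 absorptive colonocyte markers, 7 were lower, with means of 8.16 to 11.07 in 12SPF, against 11.47 to 11.64 in 12WT, as were 5 of 6 enteroendocrine markers. Lower levels in 12SPF were thus also found in other cell classes. The same held in 9CC against 9WT, where absorptive colonocyte means were 10.12 to 10.57, against 11.62 to 11.74. Enteroendocrine means were 7.23 to 8.07 in 9CC, against 8.74 to 8.99 in 9WT. Smooth muscle means were 10.55 to 10.63 in 9CC, against 11.21 to 11.34 in 9WT. Markers of epithelium in general read 11.29 to 11.54 in 12SPF, against 11.14 to 11.50 in 12WT, with 3 of 16 higher and 1 lower. Over all genes, 17.2% were called higher and 15.6% lower in 12SPF against 12WT, and 13.2% higher in 9CC against 9WT.

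Pancreatic RNA bears on Zg16 and Klk1, which the exocrine pancreas also expresses. The mean of 12 acinar markers was 7.49 in 7WT replicate 1 and 6.05 in 12SPF replicate 3, and lay between 4.50 and 5.62 on the other arrays. Both genes were low, not high, in 12SPF replicate 3, at 11.09 for Zg16 1428358_at and 9.29 for Klk1 1415837_at. In 7WT replicate 1 they read 13.15 and 13.45, against 12.79 and 12.79 for Zg16 and 13.28 and 13.40 for Klk1 on the other 7WT arrays.

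**Figure D4:**
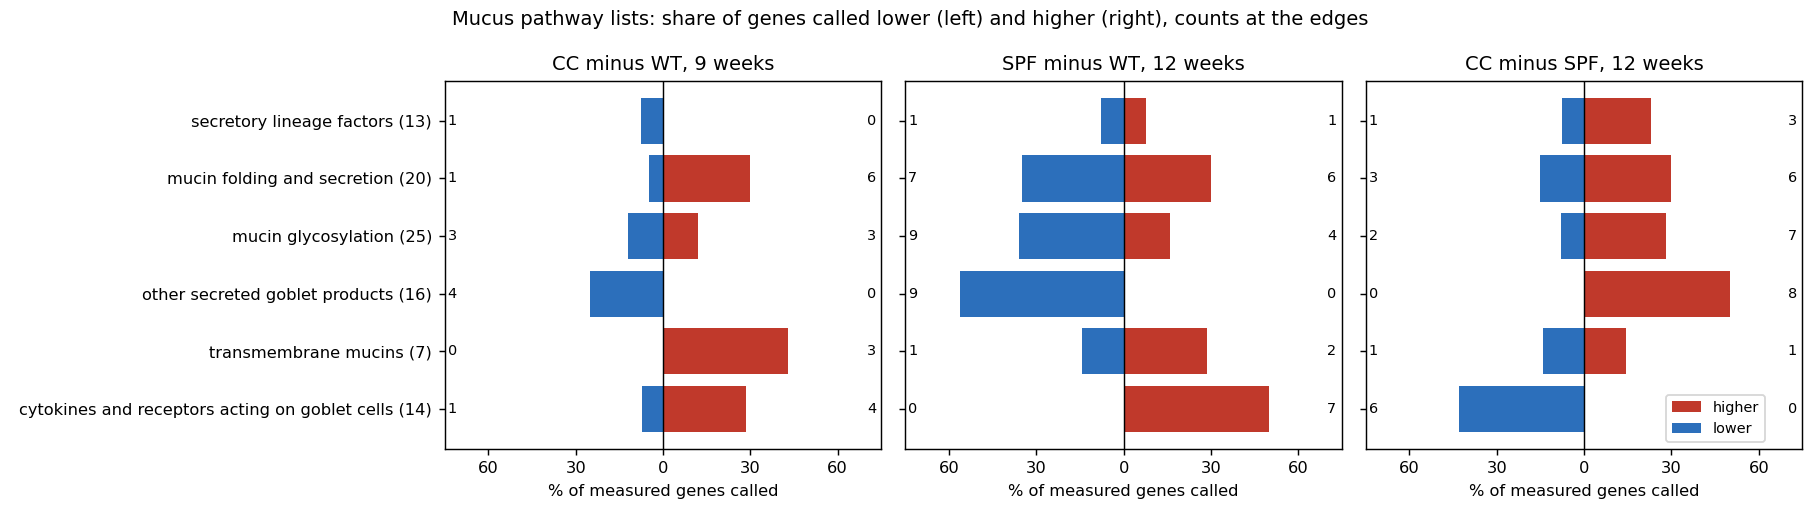
Share of the measured genes of 6 lists, in percent, called lower (left of 0) or higher (right of 0) in 3 comparisons, with the counts at the edges and the number of genes measured in brackets. The list named other secreted goblet products, which also holds genes that are not secreted, shows 9 of 16 genes lower in SPF than in WT at 12 weeks. In it 8 are higher in CC than in SPF.

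Other genes of the mucus pathway were read by 1 probe set each, with 18193 genes as background. In SPF against WT at 12 weeks, 15.6% of all genes were called lower and 17.2% higher. In CC against WT at 9 weeks the shares were 8.92% lower and 13.2% higher, and in CC against SPF at 12 weeks they were 12.3% lower and 9.73% higher. The median difference over all genes was between 0.00 and 0.02 in each.

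Calls of the genes listed as other secreted goblet products went in the same direction as those of the goblet cell genes in these 3 comparisons. The name is loose, since Scin and Hepacam2 among them are not secreted. In 12SPF against 12WT, 9 of 16 were lower and none higher, with a median of -0.99. Clca1, a secreted metalloprotease of mucus, read 10.50, 13.07 and 10.42 in 12SPF, against 13.98, 13.15 and 13.68 in 12WT, a difference of -2.27 ± 0.43 (SE) with an adjusted p of 0.000536. Scin, an actin-severing protein, fell by 2.80 on the log2 scale, with readings of 6.66, 9.49 and 6.38 in 12SPF, against 10.64, 10.06 and 10.23 in 12WT (adjusted p 0.000275). Hepacam2, a cell adhesion protein, fell by 1.82 (adjusted p 0.000442). In each, replicate 2 of 12SPF was the highest of its group, as in Klk1.

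In 9CC against 9WT, 4 of these 16 were lower and none higher, with a median of -0.45. Ang4, an antimicrobial ribonuclease, read 9.43, 9.46 and 8.07 in 9CC, against 12.36, 13.81 and 12.32 in 9WT, a difference of -3.84 ± 0.86 (SE) with an adjusted p of 0.00412. Clca1, Scin and Reg4, a lectin of secretory cells, fell by 1.75, 2.29 and 2.58, with adjusted p of 0.00701, 0.00273 and 0.0472. Averaged over ages, Ang4 differed from WT by -2.35 in CC and by -2.87 in SPF (adjusted p 0.00359 and 0.000214). In 12CC against 12SPF, 8 of 16 were higher and none lower, with a median of 1.03, Clca1 by 2.33 ± 0.43 (adjusted p 0.00245) and Scin by 2.54 ± 0.48 (adjusted p 0.00275). Retnlb, an antibacterial goblet cell protein, was called higher in SPF than in WT averaged over ages, by 1.90 ± 0.56 (adjusted p 0.0128), and was named after its value was seen.

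Factors of the secretory lineage gave few calls against the wild types and more in SPF between 7 and 12 weeks. Of 13, 1 was lower and 1 higher in 12SPF against 12WT, with a median of -0.15. Creb3l4, a membrane-bound transcription factor, fell by 1.04 (adjusted p 0.0140), and Xbp1, a factor of the unfolded protein response, rose by 0.33 (adjusted p 0.0175). Foxa2, a forkhead factor, was the only 1 called in 9CC against 9WT, at -1.09 ± 0.26 (SE; adjusted p 0.00571). Atoh1, which commits cells to the secretory lineage, read 8.75, 9.77 and 7.84 in 12SPF, against 9.47, 9.36 and 9.10 in 12WT, and its difference of -0.52 ± 0.32 did not pass (adjusted p 0.257). It was named because of that role, after its value was seen. In 12CC against 12SPF, 3 of the 13 were higher and 1 lower, with a median of 0.43. In 12SPF against 7SPF, 6 of 13 were lower and none higher, with a median of -0.44, where 13.0% of all genes were called lower and 12.7% higher, and Atoh1 was among them at -1.16 ± 0.32 (adjusted p 0.0129). The change of CC minus SPF from 9 to 12 weeks was called higher for 4 of 13 and lower for none, with a median of 0.47, where 6.67% of all genes were called higher and 9.31% lower.

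Genes of mucin folding and secretion went both ways. In 12SPF against 12WT, 6 of 20 were higher and 7 lower, with a median of -0.32. The 6 higher ones included the endoplasmic reticulum genes Creld2, at 1.50 ± 0.29 (SE; adjusted p 0.000691), Sec61b and Hspa5. Creld2 read 9.82, 9.24 and 10.30 in 12SPF, against 8.14, 7.95 and 8.76 in 12WT, so that replicate 3 was the highest where Muc2 was the lowest. Agr3, the paralog of Agr2, was among the 7 called lower, with readings of 2.97, 3.08 and 2.64 in 12SPF, against 3.99, 4.38 and 4.07 in 12WT. These lie below every array median and overlap the range of the Klk1b probe sets, so a level above background is not shown and no size is given. Kcnma1, a potassium channel, fell by 1.34 (adjusted p 0.000176). In 9CC against 9WT, 6 were higher and 1 lower, with a median of -0.07, among them Sec61b at 0.55 ± 0.12 (adjusted p 0.00356) and Creld2 at 1.24 ± 0.29 (adjusted p 0.00571). In 12CC against 12SPF, 6 were higher and 3 lower, with a median of 0.25.

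Enzymes of mucin glycosylation also split. In 12SPF against 12WT, 9 of 25 were lower and 4 higher, with a median of -0.31. Gal3st2, a sulfotransferase acting on galactose, fell by 2.19 (adjusted p 7.19e-05), with readings of 6.16, 7.42 and 6.25 in 12SPF, against 8.79, 8.61 and 8.99 in 12WT. Gal3st2 was also lower in CC than in WT at 7, 9 and 12 weeks, with log2 differences of -1.59, -2.36 and -1.49, and it was the only gene of the 6 lists called in CC against WT at 7 weeks. Its mean at that age was 7.46 in 7CC and 7.85 in 7SPF, against 9.05 in 7WT, and SPF against WT was not called. St6galnac2, a sialyltransferase, fell by 1.16 (adjusted p 0.000602), while Fut2, a fucosyltransferase of mucin glycans, rose by 1.18 (adjusted p 0.000903). In 9CC against 9WT, 3 were higher and 3 lower, with a median of -0.15, and Fut2 read 9.77, 9.49 and 9.69 in 9CC, against 8.54, 8.41 and 8.64 in 9WT. In 12CC against 12SPF, 7 were higher and 2 lower, with a median of 0.33.

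Mucins of the cell membrane gave calls in both directions. In 12SPF against 12WT, 2 of 7 were higher and 1 lower, with a median of -0.01. Muc1 read 8.11, 6.62 and 9.23 in 12SPF, against 4.97, 5.56 and 5.57 in 12WT, a difference of 2.62 ± 0.43 (SE) with an adjusted p of 0.000182. Its highest reading was on replicate 3, where Muc2 had its lowest. Muc13 rose by 0.59 (adjusted p 0.00145) and Muc3 fell by 0.75 (adjusted p 0.00591), with readings of 12.86, 13.29 and 12.05 in 12SPF, against 13.48, 13.27 and 13.71 in 12WT. In 9CC against 9WT, Muc4, Muc1 and Muc13 were higher, 3 of 7 with none lower and a median of 0.08, while in 12CC against 12SPF 1 was higher and 1 lower, with a median of 0.06.

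Some cytokines and receptors that act on goblet cells were higher in 12SPF and in 9CC. In 12SPF against 12WT, 7 of 14 were higher and none lower, with a median of 0.59. Il1b, an inflammatory cytokine, read 9.88, 6.08 and 10.32 in 12SPF, against 4.76, 5.07 and 4.92 in 12WT, a difference of 3.85 ± 0.71 (SE) with an adjusted p of 0.000473. The WT readings lay near the array medians. Il4ra, a receptor chain for IL-4 and IL-13, which drive mucus production, rose by 1.50 (adjusted p 0.000122), and Tnf by 1.33 (adjusted p 0.000539). In 9CC against 9WT, 4 were higher and 1 lower, with a median of 0.19: Il1b rose by 3.45 and Il18 fell by 1.35 (adjusted p 0.00228 and 0.00152). In 12CC against 12SPF, 6 of 14 were lower and none higher, with a median of -0.53.

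The genes whose values ran closest to each goblet cell gene over the 27 arrays were found by Pearson's r, with 1 probe set a gene. These values describe arrays that share groups, a platform and a few arrays with large deviations, and r of the deviations from the group means is given beside each. For Klk1 they were Sult1a1 (0.987, deviations 0.980), Gm1123 (0.984, 0.966) and Mep1a (0.983, 0.963). For Muc2 they were Elapor1 (0.974, 0.955), Mettl7b (0.959, 0.959) and Cyp2c65 (0.944, 0.922). For Fcgbp they were Dop1b (0.953, 0.895), Tcta (0.936, 0.868) and Cdhr2 (0.935, 0.874), and for Zg16 they were Pigr (0.938, 0.878), Tspan1 (0.933, 0.916) and Entpd8 (0.932, 0.894). Tff3 and Agr2 had lower maxima, Ptprf at 0.914 and Ghitm at 0.863.

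Spdef ran with other genes than its neighbours in this list. Its closest genes were Ppcs (0.866, deviations 0.954), B4galnt1 (0.866, 0.846) and Isx (0.837, 0.892). Its r with Klk1 was 0.160, with Fcgbp 0.0227 and with Tff3 -0.0759, while Klk1 and Fcgbp had 0.897 and Klk1 and Zg16 0.884. For the deviations from group means, Spdef had 0.693 with Muc2 and 0.703 with Agr2, against 0.441 and 0.224 over all values. Within groups, arrays with more Spdef thus tended to have more Muc2 and Agr2, as a description of these 27 arrays.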

How the data were processed

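The deposited table holds log2 values per probe set, which the authors made by normalizing the arrays with affyPLM, per the series design text. Its version, background correction and summary step were not given in the sources used here. The text names a rat array although the probe sets carry mouse annotation. RNA was extracted with Trizol and RNeasy columns and labelled with biotin, per the labels' protocols. Of 45101 probe sets, 64 controls were left out. The platform's annotation gave 34945 of the rest 1 gene symbol, 932 several and 9160 none.

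A linear model with 9 group means was fitted to all 27 arrays with limma 3.58.1 in R 4.3.3 (lmFit and eBayes, two-sided, 18 residual and 4.93 prior degrees of freedom), and p-values were adjusted by Benjamini-Hochberg over 45037 probe sets. A call is an adjusted p under 0.05. Python 3.11.15, pandas 2.3.3, NumPy 2.4.6 and matplotlib 3.10.9 were used for the rest. The fit was tested on simulated data. For gene lists, 1 probe set stood for a gene. Genes of each list were named by the lowest adjusted p among those called in a comparison (4 in CC against WT at 9 weeks, 3 otherwise), and exceptions are marked in the text. The 7 genes and the lists were chosen with earlier results of these data known, so a list's direction is not independent evidence. Alternatives covered the replicate block, normalization, filtering, weights, the arrays fitted and leaving out each array.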

Additional observations from a re-analysis of the deposited data

Results flagged for a closer look

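For 8 differences, the gap between conventional and SPF knockouts was not the same at 12 weeks as at a younger age, by a test of that change itself in limma. From 9 to 12 weeks, CC minus SPF changed by 2.72 ± 0.70 (SE) for Klk1 1415837_at and by 2.81 ± 0.71 for Klk1 1448107_x_at, with adjusted p of 0.0151 and 0.0139. It changed by 1.69 ± 0.48 for Fcgbp (adjusted p 0.0260) and by 0.64 ± 0.17 for Agr2 1419268_at (adjusted p 0.0157). For Zg16 it changed by 1.37 ± 0.42, 0.71 ± 0.23 and 0.79 ± 0.26 at 1428358_at, 1428359_s_at and 1434137_x_at, with adjusted p from 0.0354 to 0.0494. From 7 to 12 weeks it changed by 2.42 ± 0.70 for Klk1 1415837_at, with an adjusted p of 0.0492. This last call was lost with the replicate block and with quantile normalization again. With only the compared arrays none of the 8 was called. All 8 share the 12SPF arrays, and the 2 Klk1 and the 3 Zg16 probe sets each read 1 gene.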

How the results depend on the processing

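Of the 26 calls between kinds of mice, 4 held in every setting they were run in (36 for Klk1 1415837_at and Fcgbp over ages, 35 for the other two, which are not the probe set standing for Klk1) and 0 changed sign. Counts of the 13 probe sets called moved as follows, calls over all probe sets often moved with them, and the cause was not tested unless stated. With the replicate block, CC against WT at 9 weeks gave 1 instead of 2, SPF against WT at 9 weeks 0 instead of 1, and the change of CC minus SPF from 7 to 12 weeks 0 instead of 1. Samples with the same replicate number did not deviate together (median correlation -0.012, over 0.1 for 4 of 27 pairs). For different numbers the median was -0.0019, over 0.1 for 11 of 54 pairs. With 3 arrays a group this cannot exclude a pairing, and none was used in the main fit. With 1 probe set a gene, which leaves 7 probe sets, counts were 1 for CC against WT and 0 for SPF against WT at 9 weeks, 4 for SPF against WT and 6 for CC against SPF at 12 weeks, 2 for SPF against WT over ages, 5 for SPF from 7 to 12 weeks, 4 for the change of CC minus SPF from 9 to 12 weeks, and 1 for the change of SPF minus WT from 7 to 12 weeks. With only the arrays of the groups compared, which leaves each spread to fewer arrays, counts were 4 for CC against WT at 9 weeks, 3 for CC against WT over ages, 3 for CC from 7 to 9 and 3 from 9 to 12 weeks, and 3 for each of those changes of CC minus WT. They were 0 for SPF against WT at 9 and at 12 weeks, CC against SPF at 12 weeks, SPF from 7 to 12 weeks and both called changes of CC minus SPF. With array weights, which raised the calls over all probe sets at 9 weeks to 13579 for CC against WT (7718 without weights) and 9169 for SPF against WT (3548 without), counts were 7 and 2 in these comparisons, 2 and 7 for the same over ages, 7 and 8 for CC from 7 to 9 and from 9 to 12 weeks, and 10 for SPF from 9 to 12 weeks. For the changes they were 1 and 2 (CC minus WT, 7 to 9 and 9 to 12 weeks), 5 and 8 (SPF minus WT, 9 to 12 and 7 to 12 weeks), and 11 and 9 (CC minus SPF, 9 to 12 and 7 to 12 weeks). Centred on epithelial markers, counts were 1 for CC against WT and 8 for SPF against WT over ages, 2 for the change of SPF minus WT from 7 to 12 weeks and 4 for the change of CC minus SPF from 9 to 12 weeks. Without the lowest 40% of probe sets, and with an intensity trend, the changes of SPF minus WT and of CC minus SPF from 7 to 12 weeks gave 2 each. Quantile normalization again gave 0 for the last of these. Leaving out 1 array in turn, counts ranged from 0 to 4 and from 0 to 1 for CC and SPF against WT at 9 weeks, the highest CC count without 12SPF replicate 2 or 3. They ranged from 3 to 11 for SPF against WT and from 2 to 11 for CC against SPF at 12 weeks. Over ages they ranged from 0 to 1 for CC against WT, 4 to 11 for SPF against WT and 0 to 3 for CC against SPF. For age steps they ranged from 0 to 3 in CC from 7 to 9 and from 9 to 12 weeks, 0 to 8 in SPF from 9 to 12 and 2 to 9 from 7 to 12 weeks. For changes of SPF minus WT they ranged from 0 to 5 (9 to 12 weeks) and 0 to 9 (7 to 12 weeks), and for those of CC minus SPF from 0 to 11 and 0 to 8. Uncalled Spdef changed sign in some settings: SPF minus WT at 12 weeks ranged from -0.0395 to 0.518 when 1 array was left out, and CC minus SPF from -0.225 to 0.337, with -0.0202 when centred on epithelial markers. Uncalled Klk1 1460050_x_at in CC minus SPF at 12 weeks ranged from -0.0665 to 0.165, with -0.0521 when centred on epithelial markers and -0.0140 with array weights. Values near the array maximum, as for Muc2, and 3 selected samples a group limit what differences could be seen.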

Other observations

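Lymphocyte and tuft cell markers gave a mixed picture beside the goblet cell genes. Of 6 T cell markers measured, 4 were higher in 9CC than in 9WT and 4 were higher in 12SPF than in 12WT, with medians of 0.76 and 0.73. Of 3 B cell markers none was called in either comparison. Of 5 tuft cell markers, 1 was lower in 9CC and 2 were lower in 12SPF, with medians of -0.14 and -0.01. Of 12 pancreatic acinar markers, 2 were lower in each comparison. Over all genes, 8.92% were called lower and 13.2% higher in 9CC against 9WT. In 12SPF against 12WT the shares were 15.6% lower and 17.2% higher.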
